A study of Talpa occidentalis with 2 samples.

Results

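Class I olfactory receptors were the gene models of the Iberian mole, Talpa occidentalis, whose symbol begins with OR51, OR52, OR55 or OR56 followed by letters and a number. They were taken by symbol, the model name without its copy suffix, from the authors' deposited gene models on assembly talOcc3. The rule found 45 of 23336 gene models (0.193%), which carried 25 of 16075 distinct symbols and lay on 2 of 2074 scaffolds. The series itself profiled, by 4C-seq, which sequences the DNA that touches one chosen site, contacts of the FGF9 transcription start in wild-type mole embryos of day 15. There was 1 library from forebrain and 1 from hindlimb, and contact values were not analysed here. The annotation has no column for either library, so every value below describes 1 assembled genome, without replicates, and no difference between gene groups carries a test.

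Olfactory receptors are odorant-binding G protein-coupled receptors of sensory neurons in the nose, and each neuron usually expresses 1 receptor gene. They form the largest gene family of most mammals. Class I receptors resemble those first known from fish, and in mammals they lie together in one long cluster that holds the beta globin genes, whereas class II receptors are spread over many clusters. The coding part of a receptor gene is normally a single uninterrupted exon. In the labels used here, families 51, 52, 55 and 56 make up class I and all other numbered families class II.

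The receptors lay almost entirely in one place. Of the 45 models, 42 (93.3%) formed 1 cluster on scaffold 18, from 40983209 to 42214563, a length of 1.23 Mb. A cluster was a run of members whose edges lay no more than 500 kb apart. Its lowest member was OR52L1 and its highest was OR52B4_copy3. A pair, OR56B4 and OR52B2, lay between 8978 and 54726 on scaffold 85, a small scaffold whose last annotated base is 145247. The remaining model, OR51G2, stood alone on scaffold 18 at 18132693 to 18133170. Class II receptors were arranged otherwise: 848 models of 242 symbols on 97 scaffolds made 118 clusters, of which 65 held 1 model, and the largest held 137 models (16.2%).

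**Figure D1:**
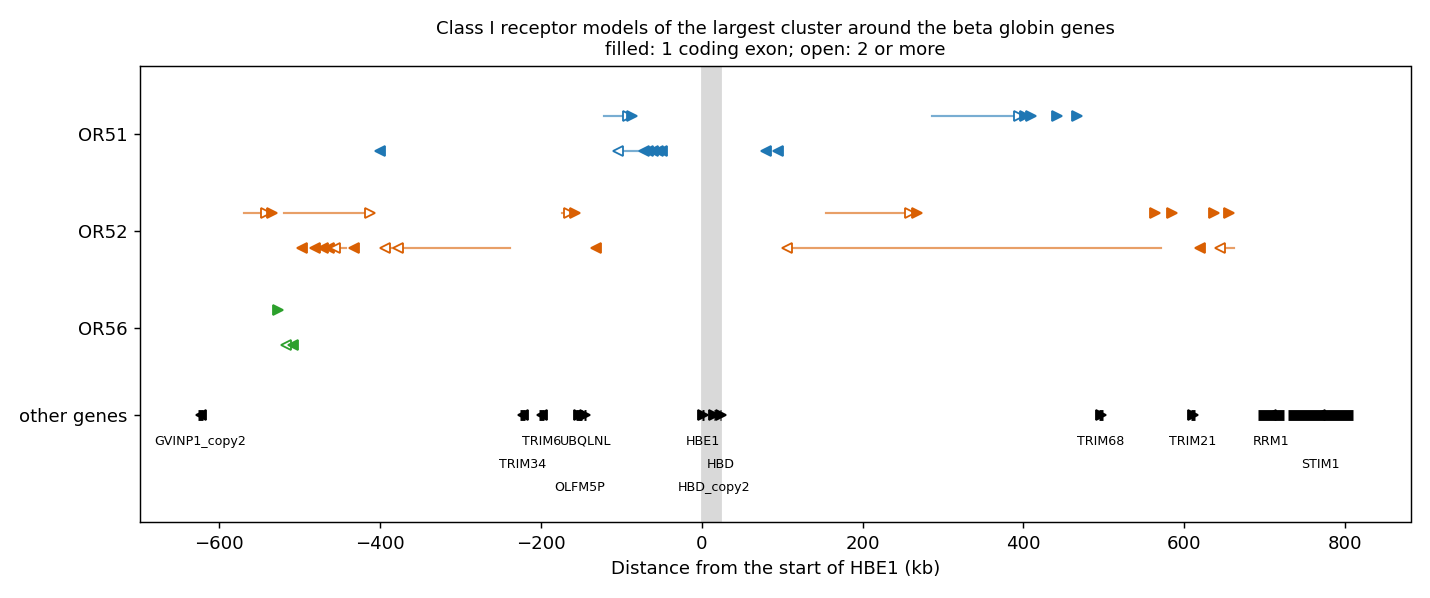
Each arrow is a class I model of the largest cluster, placed by its distance in kb from the start of HBE1, in a row for its family and pointing along its strand, with a line over its whole extent. Filled arrows have 1 coding exon and open arrows 2 or more, black bars are other genes, and the grey band marks the 3 beta globin models, which 26 members lie below and 16 above.

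The families occupied different stretches of the cluster. OR52 was the largest family, with 24 models of 13 symbols, followed by OR51 with 17 models of 9 symbols and OR56 with 4 models of 3 symbols. OR55 had 0 models. On the lower side of the globin genes lay 9 OR51, 14 OR52 and 3 OR56 models, and on the upper side 7 OR51, 9 OR52 and 0 OR56 models. OR51 models surrounded the globins on both sides, from OR51I1 below to OR51G1 above, and OR51E2_copy2 was the only OR51 model of the cluster outside that stretch. The names OR51G1 and OR51E2_copy2 rest on short matches, over 22.6 and 31.5% of the coding length. The OR52 models filled both ends, and OR52K1 and OR52E2 also lay among the OR51 models above the globins. The bounds of OR52K2 ran through these OR51 models as well. Its exon with the most matched bases, 561, lay above them near OR52M1, whereas exons with 220 and 118 matched bases lay among them. OR56A1, OR56A4 and OR56A4_copy2 lay close to the lower end.

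Neighbouring receptors often shared a strand. The cluster had 19 models on the plus strand and 23 on the minus strand, with 12 changes of strand along 42 models. The 5 members nearest to the globins on their lower side, OR51M1, OR51J1, OR51Q1_copy3, OR51Q1 and OR51Q1_copy2, all lay on the minus strand. Below the globins 18 of 26 members were on the minus strand, and above them 11 of 16 were on the plus strand. Where successive members did not overlap, the median distance between their edges was 7.77 kb (22 distances), against 10.4 kb over 713 distances in the class II clusters. There were 19 overlaps within the cluster, which rest on a few very long models described below. Without the 8 members that span over 20 kb, 1 overlap remained among 34 members, and the median distance was 12.02 kb.

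The beta globin genes sat inside the receptor cluster, with receptors on both sides. HBE1, the embryonic epsilon globin gene, lay at 41552901 to 41555593 on the plus strand of scaffold 18. It was followed on the same strand by HBD_copy2, at 41567618 to 41568821, and by HBD, at 41575692 to 41576912, models named for the delta globin gene. HBD and HBD_copy2 had the same 3 coding exon lengths of 92, 223 and 129 bases and the same score of 470. HBE1 had 4 coding exons, of 41, 219, 223 and 129 bases. The last 2 exon lengths were thus equal in all 3 models. The 3 models together covered 24.01 kb.

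Receptors bordered the globins at similar distances. On the lower side the nearest was OR51M1, a single-exon model of 990 coding bases at 41503902 to 41504891, with 48.01 kb between its edge and that of HBE1. On the upper side the nearest was OR51V1, a single-exon model of 1014 coding bases at 41632771 to 41633784, with 55.9 kb between the edges of HBD and OR51V1. Both border receptors were on the minus strand, opposite to the globins. The 128 kb between OR51M1 and OR51V1 was the longest stretch of the cluster outside the bounds of any member and held 0 other models besides the 3 globins. Without members that span over 20 kb the longest such stretch was another one, of 210.3 kb, between OR52H1_copy3 and OR52H1_copy2. Models named HBB, HBG1 or HBG2 numbered 0 on all scaffolds. The OR51B receptors, which border HBE1 in the human list used below, also had 0 models.

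Besides the globins, 10 models that are not members lay within the bounds of the cluster, and 0 of them were class II receptors by symbol. TRIM34 and TRIM6, antiviral tripartite motif genes, lay on the minus strand at 41326729 to 41333319 and at 41350240 to 41357145. TRIM6 was followed, across 21.5 kb, by the receptor OR52H1_copy2. TRIM68 lay at 42047002 to 42052286, with 27.9 kb to OR51G1 and 63.02 kb to OR52M1. TRIM21, which encodes a cytosolic antibody receptor, lay at 42161394 to 42166090, only 7.15 kb from OR52B4_copy4. These TRIM genes thus stood at 3 separate places along the cluster.

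UBQLNL, a gene named for the ubiquilins, proteins that bind ubiquitin and the proteasome, lay at 41407070 to 41408908 with 1 coding exon, between OR52D1_copy2 and OR52D1. It was 12.1 kb from the former and 13.04 kb from the latter. UBQLN4_copy2 lay 1.61 kb from OR52D1, with a score of only 102. OLFM5P, an olfactomedin-named model, lay 2.17 kb from OR52D1_copy2. ATP5F1_copy5 lay within the bounds of OR52H1. A model without a symbol, at 42149194 to 42150144, had 1 coding exon of 951 bases. It could not be classed, because classes were read from symbols. MMP26, a metalloproteinase gene of the human list, had 0 models on all scaffolds.

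Above the cluster lay genes that are not receptors. RRM1, which encodes a subunit of ribonucleotide reductase, began 30.04 kb above OR52B4_copy3, and STIM1, a calcium sensor gene of the endoplasmic reticulum, followed. After them came RPL7A_copy8, RHOG, PGAP2, NUP98, CHRNA10, ART1, ART5 and TRPC2. TRPC2 codes for the ion channel of vomeronasal neurons in rodents and lay 418 kb from the last receptor. The lower edge was formed by GVINP1_copy2, an interferon-inducible giant GTPase-named model, 50.5 kb below OR52L1. Beyond it lay GVINP1_copy15, GVINP1, RPL36A_copy7, GVINP1_copy7, MRPL17, the giant cadherin gene DCHS1, TPP1, TAF10 and ILK. The nearest class II receptor on that side was OR2D3_copy4, 534 kb from the cluster with 19 models between. On the upper side it was OR2AT4, at 2.88 Mb and with 53 models between.

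The pair on scaffold 85 lay beside genes that border class I receptors in the human list. OR52B2 had 1 coding exon of 999 bases, at 37601 to 38599 on the minus strand, inside an intron of OR56B4 on the opposite strand. Next came C11orf42, 4.79 kb above OR56B4, then FAM160A2, CNGA4, CCKBR and PRKCDBP, the older symbol of CAVIN3. Both that intron and the 4.79 kb rest on the last exon of OR56B4, at 54061 to 54726, which held 0 matched bases. CNGA4, at 90350 to 95701 with 6 coding exons, encodes a subunit of the cyclic nucleotide-gated channel through which olfactory neurons convert receptor signals. In RefSeq's gene table for the later assembly MPIMG_talOcc4v2.1, where CAVIN3, CCKBR, CNGA4, FHIP1B (the newer symbol of FAM160A2) and CUNH11orf42 carry symbols, this run lay between MRPL17 and UBQLNL. RefSeq listed 42 genes between CUNH11orf42 and UBQLNL. The later build thus placed the genes of scaffold 85 on the lower side of the large cluster.

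OR51G2 differed from all other members in place and size. It had 478 coding bases, the fewest of the 45, and its nearest genes were LRRC4C, 1526 kb below, and C11orf74, 441 kb above, followed by RAG2 and RAG1, the recombination genes of lymphocytes. Its score was 136, from 261 matched target bases. OR51G2_copy2, the other model of the symbol, lay within the large cluster with a score of 132. The name OR51G2 therefore rests on low scores at both places.

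Gene order along the cluster was set against a list of 77 genes of the human class I region, written from general knowledge and not checked against a human annotation. Of its 52 receptor symbols, 24 had a mole model and 28 had none under that name. Among the latter were all 4 listed OR51B symbols, OR51E1, OR52A1, OR52A5, OR52I1, OR52I2 and OR52W1. Of the 25 other listed genes, 20 had a model, and HBB, HBG1, HBG2, HPX and MMP26 had none. OR51J1 was the only member symbol that the list did not hold. A missing symbol need not be a missing gene, and how the authors assigned symbols was not tested.

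With listed genes that have no model on scaffold 18 skipped, just over 50% of successive pairs were neighbours there, mostly in the opposite direction. A total of 35 listed genes lay on scaffold 18 and gave 34 successive pairs, each symbol placed by the 5′ end of its highest-scoring model. A pair can thus span skipped genes of the list, such as the OR51B symbols between HBE1 and OR51M1. Of these pairs, 18 (52.9%) were neighbours with no other listed gene between them, and 12 of the 16 others had at most 4 listed genes between. The first unbroken run, from STIM1, ended at OR52K2 after 4 pairs. OR51G1, OR51G2 and OR52K1, whose best scores were under 200, were then left out, a choice made after their values were seen. That left 31 pairs, of which 22 (71%) were kept. With this choice, the first 18 pairs formed an unbroken run of 19 genes, 11 of them receptors, from STIM1 to UBQLNL. These ends are places 1 and 47 of the list, so many listed genes within the run were skipped. In this run RRM1 was followed by OR52B4, TRIM21, OR52K2, OR52M1, TRIM68, OR51E2, OR51F1, OR52E2 and OR51V1, then by the globins, and on their far side by OR51M1, OR51Q1, OR51I1 and OR52D1.

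Departures from the list lay along the whole cluster. In its upper part they were the pairs around OR52K1, OR51G2 and OR51G1, with TRIM68 to OR51E2 and OR52E2 to OR51V1, and without those 3 symbols the departures lay below UBQLNL. OR52H1, whose 5′ end lay below TRIM34, stood apart from UBQLNL, with TRIM6 and TRIM34 between, but OR52H1_copy2, with a score of 554 against 661, lay between TRIM6 and UBQLNL, as in the list. Placed at the model nearest to its listed neighbours, 20 of 34 pairs were kept. OR52E8 and OR52E4 exchanged places when placed by their 5′ ends, but the matched exon of OR52E8, at 41065449 to 41066039, lay between OR52N2 and OR52E4, as in the list. OR52L1 precedes OR56A4 and OR56A1 in the list and lay beyond both of them here. SMPD1, APBB1 and TRIM3 kept their 2 pairs but ran in the opposite direction to the other 16 kept pairs. In the human list CAVIN3 stands next to SMPD1, whereas in the deposited annotation the former was on scaffold 85 and the latter on scaffold 18, beyond DCHS1 and TRIM3. In RefSeq, too, SMPD1 and CAVIN3 were not neighbours, with 24 genes between them. TRIM5 and TRIM22, which stand beside TRIM34 in the human list, had their best models on the small scaffolds 262 and 279.

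**Figure D2:**
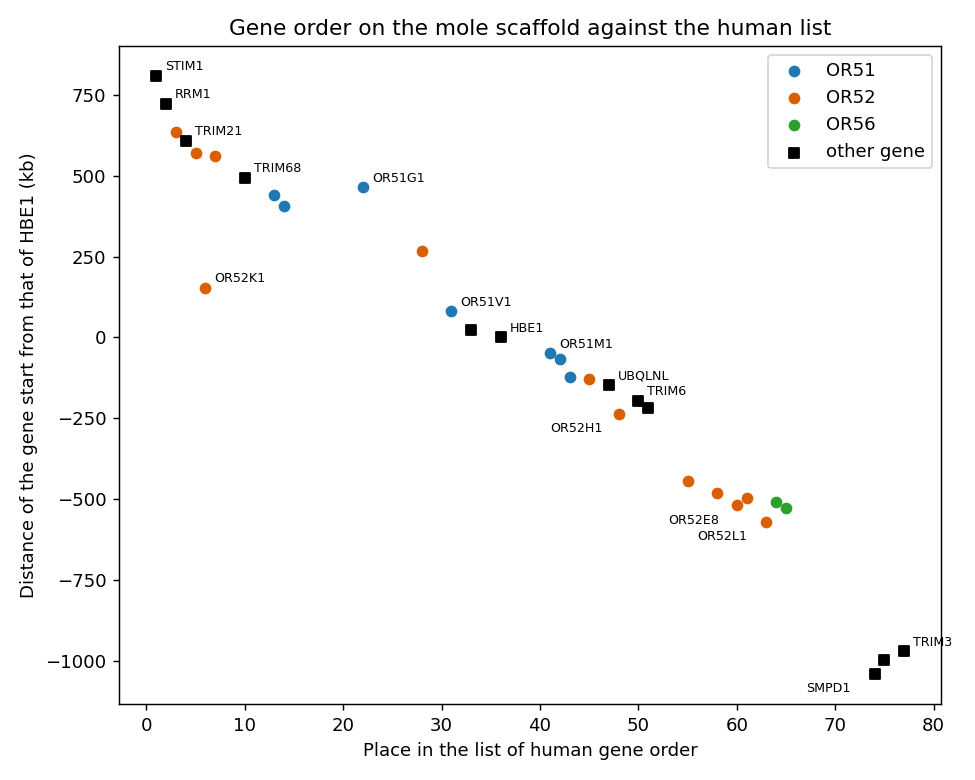
Points are listed genes with a model on scaffold 18, 1 gene not reported here left out, by their place in the human list (x axis) and by the distance in kb of their start from that of HBE1 (y axis); the lone OR51G2 model is outside the range. The points descend from STIM1 to OR52L1, with OR52K1 and OR51G1 farthest from this line and small exchanges at its lower end, and the SMPD1 to TRIM3 group at the right rises.

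Several symbols were carried by more than 1 model. Of the 25 member symbols, 13 (52%, Wilson 95% interval 33.5 to 70%) had at least 2 models, against 14.6% of all symbols and 57.4% of class II symbols. With only the 33 models whose match spans at least 50% of their coding length, the class I share was 28.6%, below that interval. The number of models per symbol was smaller than in class II: its highest value was 4, against 55 in class II, and its mean was 1.80 against 3.50. In class I, 12 symbols had 1 model, 8 had 2, 3 had 3 and 2 had 4. Of the 13 symbols with several models, 8 had all of them next to each other among the members. These intervals cover counting error only, and symbols that share a target are not independent.

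Models of one symbol had similar scores in some cases and very different ones in others. A score was assigned by the authors to the match of a model with a named target transcript, and models of different symbols have different targets. OR51Q1 had 4 models, all within 43.7 kb on the minus strand, with scores of 1056, 1028, 1009 and 662. The first 3 each had 1 coding exon of exactly 951 bases, while OR51Q1_copy4, the fourth, had 2 coding exons. OR51F1 had 3 models on the plus strand, with scores of 1084, 1018 and 984. OR52N2 had 3 within 18.2 kb on the minus strand, with scores of 1201, 1160 and 840. OR51V1 had 2 models, with scores of 638 and 559. In these 4 symbols the copies lay on 1 strand, and the weakest copy of each held 62.7 to 90.8% of the best score.

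Other sets were looser. OR52B4 had 4 models next to each other within 41.3 kb, on both strands, with scores of 1079, 988, 919 and 595. OR52H1 had 3 models, with scores of 661, 554 and 538, spread over 229 kb on both sides of TRIM34 and TRIM6. OR56A4 had a single-exon model scoring 1079 and OR56A4_copy2, with 2 coding exons, scoring 403. OR52E8 had scores of 741 and 273. For OR51E2, a receptor also studied in human prostate, the models scored 1254 and 146 and lay 842 kb from end to end, on opposite strands. OR52D1 had scores of 1141 and 138, OR52E4 of 1107 and 152, and OR52M1 of 891 and 162. The second models of these last 4 symbols held between 11.6 and 18.2% of the best score.

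**Figure D3:**
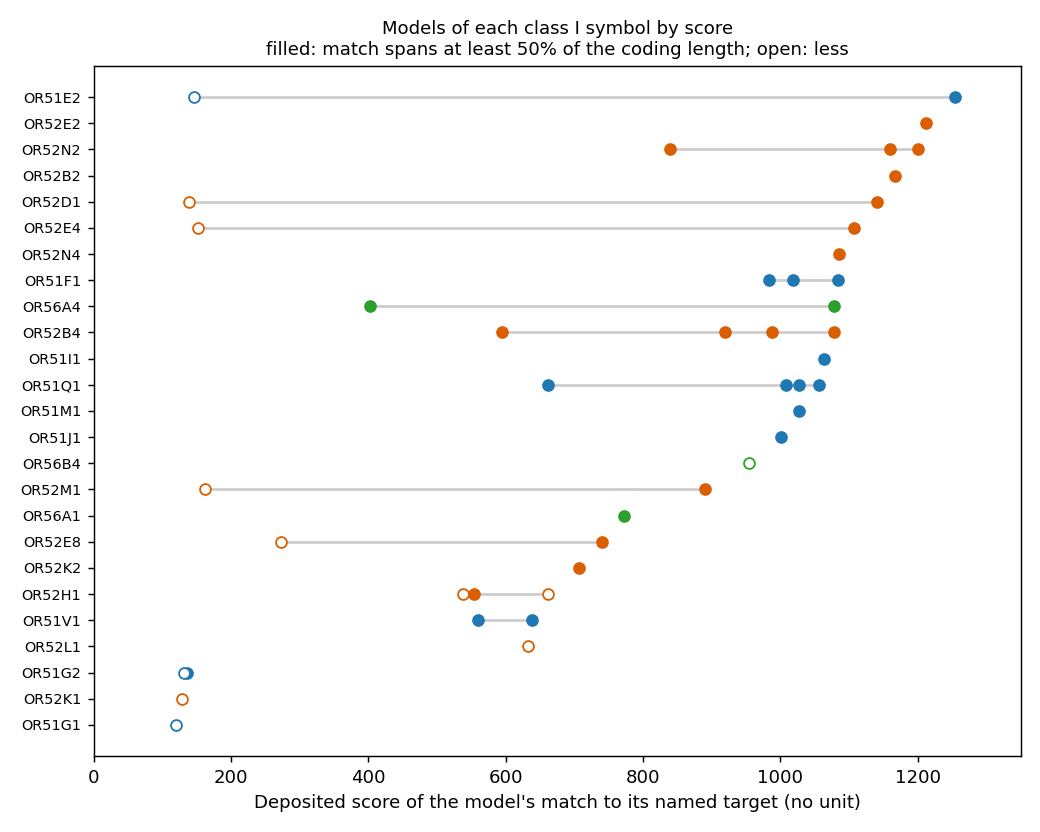
Each point is a class I model, by its deposited score (x axis, no unit) in the row of its symbol, coloured by family as on the map; filled points match their target over at least 50% of their coding length and open points over less. Rows are to be read on their own: OR51Q1, OR51F1 and OR52N2 hold groups of high-scoring copies, whereas the second models of OR51E2, OR52D1, OR52E4 and OR52M1 lie between 138 and 162.

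How far each name is supported by its match varied widely. In 12 of 45 members (26.7%, Wilson 95% interval 16 to 41%) the matched target part spanned under 50% of the coding length, against 11.4% of all models with a target and 14.6% of class II models. The gap was smaller among models from exonerate, an aligner that gave 39 of the 45 members. There the share was 25.6% in class I (14.6 to 41.1%), 19.7% in class II and 21.3% of all models with a target. The lowest scores, between 119 and 162, belonged to 8 members, and the next was 273, although scores against different targets may not share a scale. The 8 were OR51G1 (score 119), OR52K1 (128), OR51G2_copy2 (132), OR51G2 (136), OR52D1_copy2 (138), OR51E2_copy2 (146), OR52E4_copy2 (152) and OR52M1_copy2 (162). Their matches covered 218 to 308 target bases. Yet 6 of them, all but OR51G2 and OR52K1, were single-exon models of 951 to 1017 coding bases, which is the size of a whole receptor. These 6 are receptor-sized models whose symbol rests on a short matched part. Without the 8, which were grouped after their scores were seen, 37 models of 22 symbols remained, and 8 symbols had at least 2 models.

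Most members had the single coding exon known for this family. There were 31 of 45 (68.9%, Wilson 95% interval 54.3 to 80.5%), against 24.7% of all gene models and 80.9% of class II models (78.1 to 83.4%). Among exonerate models, which gave 39 of the 45 members, the share was 69.2% in class I (53.6 to 81.4%). There it was 79.4% over all and 90.3% in class II. Within this source the class I share was thus not above that of all models. The single-exon members had a median of 960 coding bases, with 29 of 31 between 900 and 1100. The shortest were OR51G2 with 478 and OR52E8_copy3 with 759 bases, and the longest was OR52D1_copy2 with 1017. Class II single-exon models had a median of 936 bases. Over all exon numbers, the median was 969 bases in class I, with the middle 50% between 954 and 1008, and 936 bases in class II, with the middle 50% between 930 and 951. For all gene models it was 1011 bases.

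**Figure D4:**
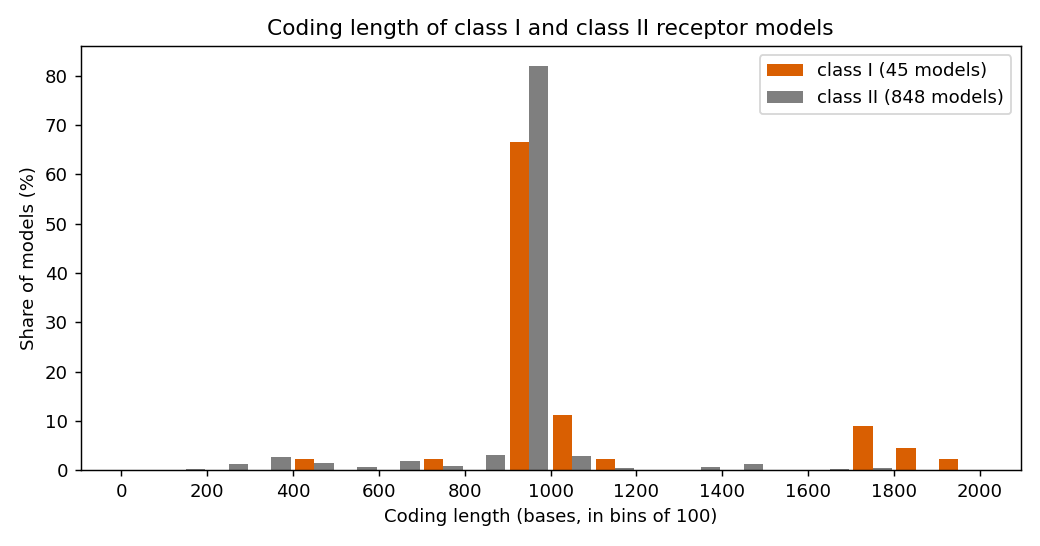
Bars give the share of class I models (45) and class II models (848) in bins of 100 coding bases (x axis in bases, y axis in %). Both peak between 900 and 1000 bases, with 66.7% of class I and 82.0% of class II models there, and 7 class I models stand apart at 1746 to 1959 bases.

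Coding length was a multiple of 3, a whole number of codons, in 39 of 45 members (86.7%), against 87.8% of all gene models and 89.5% of class II models. The share in class I was near that background. The 6 exceptions were OR52N2 with 964 bases, OR51J1 with 953, OR52E2 with 958, OR52B4_copy4 with 920, OR51G2 with 478 and OR52K1 with 1829. The first 3 were single-exon models with scores of 1201, 1001 and 1212, each matched to its target over at least 98.7% of its coding length. Whether these receptors are intact was not read from sequence.

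The other 14 members had 2 or more coding exons: 8 had 2, 4 had 3, and OR52K2 and OR52H1 had 5 and 8. Their extent on the scaffold was large, with a median of 28.99 kb against 0.960 kb for single-exon members. In all, 9 members (20%) spanned over 20 kb, against 28.6% of all gene models and 3.77% of class II models. Among exonerate models it was 20.5% in class I, 6.32% in class II and 4.26% over all. OR52K2 reached over 465 kb, with an intron of 169 kb and 9 other models inside its bounds. OR52H1 spanned 139 kb, OR51F1_copy3 108 kb, OR52E8 107 kb and OR52K1 104 kb. OR52E8 held 8 other models within its bounds, among them all 3 OR52N2 models.

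In several of these models 1 exon held nearly the whole match. Matched bases of an exon are those inside the range of the match on the model, which can be longer than the matched target part. In OR51F1_copy3, with exons of 41, 134 and 878 bases, 877 matched bases lay in the last. In OR52N4, with exons of 881 and 127 bases, 878 lay in the first. OR52H1_copy2 had exons of 930 and 66 bases, and 888 matched bases lay in the first. OR51I1 had exons of 291 and 894 bases, and its match range took all 894 of the second and 237 of the first, for a target part of 894 bases. OR52E8 had exons of 273, 591 and 111 bases, and all 591 bases of the middle one were matched. The match ran through both exons of OR51Q1_copy4, with 497 of 497 and 407 of 472 bases, and of OR56A4_copy2, with 212 of 249 and 668 of 693 bases. The intron of OR56A4_copy2 was only 0.759 kb.

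A separate group of long models stood out. There were 7 members with at least 1500 coding bases (15.6%, Wilson 95% interval 7.75 to 28.8%), against 0.708% of class II models (0.325 to 1.54%). Of all gene models, 31.4% were that long. The interval covers counting error only, and the 7 members are not independent, since 6 came from 1 protein. The lengths of the 7, from 1746 to 1959 bases, were 1.82 to 2.04 times the median of single-exon members. The next longest member, OR51I1, had 1185. Most members came from exonerate, an aligner named in the file, which gave 39 of 45 class I models but 269 of 848 class II models. Among exonerate models alone the share with at least 1500 bases was 15.4% in class I, 1.49% in class II and 7.2% over all. The share with 1 coding exon was 69.2% in class I, 90.3% in class II and 79.4% over all. Both of these differences between the classes were thus also present within this source. All 6 long class I models of exonerate came from 1 protein, however, and what lies behind the differences was not tested. Symbols with at least 2 models made up 45.8% in class I, 46.2% in class II and 19.8% over all within this source.

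The records name the same source protein for 6 of the 7 long members. OR52L1, OR52H1_copy3, OR52K2, OR52K1, OR52B4_copy3 and OR56B4, with 1746 to 1829 coding bases, were all aligned from 1 and the same protein, whose identifier prefix is that of the little brown bat. The 39 exonerate members came from 31 different proteins in all, and 3 further proteins gave 2 members each. The bat protein also gave 3 class II models, and 9 models in the whole annotation. OR52H1_copy3 had exons of 908 and 880 bases, and its match took 887 bases of the first and 0 of the second. In OR56B4, with exons of 901, 239 and 666 bases, all 901 of the first were matched and 0 of the last. OR52B4_copy3 had exons of 902 and 880 bases, and its match range held 900 and 876 of them for a target part of 921 bases. OR52L1 was alike, with 119, 474 and 862 bases in range for a target part of 600. In OR52H1_copy3 and OR52B4_copy3 each exon was thus nearly as long as a single-exon receptor.

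OR52H1, the seventh and the only member from the source EVM, held its match in 1 of many exons. It had 8 coding exons and 1959 bases, and its 886 matched bases all lay in the last exon, of 987 bases, at 41175627 to 41176613. Of the other 7 exons, 5 successive ones had lengths of 96, 231, 23, 101 and 27 bases. TRIM6, TRIM34 and the best TRIM5 model, on scaffold 262, held the same run of 5 lengths. In the whole annotation 4 models did, OR52H1 and these 3 TRIM models. TRIM34 was the next gene above OR52H1, and TRIM5 follows TRIM34 in the human list. The run of exon lengths was noticed after the values were seen.

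The later build listed many more genes in this region than the deposited annotation. Receptor symbols were not used in its RefSeq table, where 0 symbols matched the member rule, so only numbers of genes between named landmarks can be compared. Between HBE1 and TRIM68 the deposited annotation had 11 models over 491 kb, 9 of them members, whereas RefSeq listed 71 protein-coding genes, all 71 without a symbol. That is 6.45 RefSeq genes for each deposited model. The 491 kb were measured in the deposited build, and the length of this stretch in the later build was not compared. Between DCHS1 and UBQLNL the numbers were 27 models and 46 protein-coding genes, of which 6 had symbols, among them the 5 from scaffold 85. The 27 leave out the deposited models of scaffold 85, which are OR56B4, OR52B2 and these 5 genes. The 27 and the 46 thus do not count the same set. Between UBQLNL and HBE1 they were 11 and 16, between TRIM68 and TRIM21 4 and 6, and between TRIM21 and RRM1 4 and 4. From DCHS1 to RRM1 there were 57 deposited models, 42 of them members, again without scaffold 85, and 143 protein-coding genes with 16 pseudogenes in RefSeq. The deposited number of 45 members therefore describes these models and not the receptor number of the species. The stretch between HBE1 and TRIM68 also held most of OR52K2 and all of OR52K1 and OR51F1_copy3, whose extents are long, and how these relate to the genes that RefSeq adds was not tested.

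**Figure D5:**
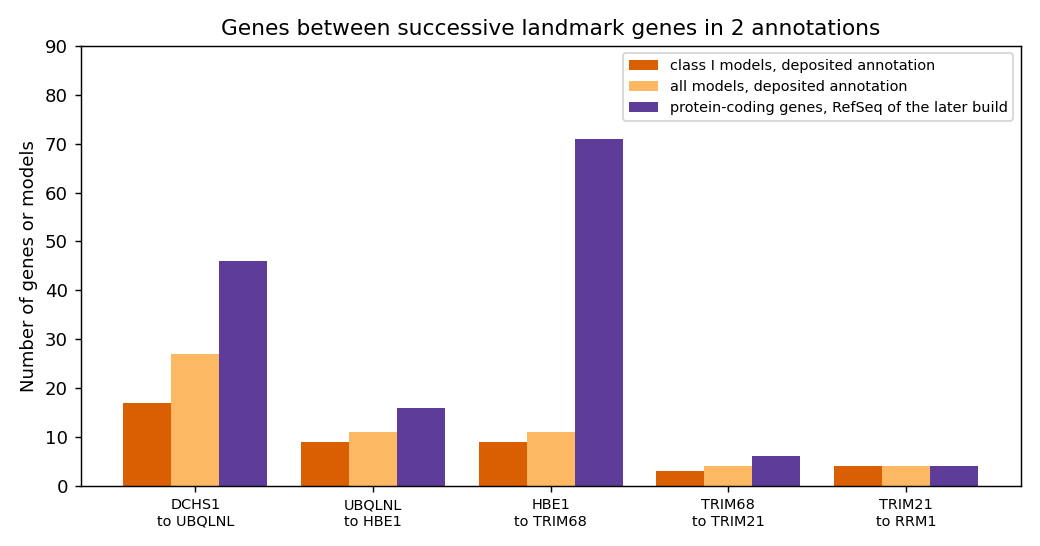
Bars count, between successive landmark genes (x axis), the class I models and all models of the deposited annotation and the protein-coding genes of RefSeq for the later build (y axis, number). Deposited models of scaffold 85 are not counted. The stretch from HBE1 to TRIM68 differs most, with 11 deposited models and 71 RefSeq genes, and the stretch from TRIM21 to RRM1 has 4 of each.

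Genes that work with the receptors lay elsewhere in the genome, with one exception. Of 15 listed genes of odorant signalling, 13 had a model, among them GNAL, the olfactory G protein subunit, on scaffold 3, ADCY3, the adenylyl cyclase, with its best model on scaffold 9, and the channel genes CNGA2 on scaffold 30 and CNGB1 on scaffold 36. OMP, the olfactory marker protein, and GNG13 had 0 models, and RefSeq lists OMP. CNGA4 on scaffold 85 was the only gene of this list beside class I receptors. GNB1 lay on scaffold 18 but outside the cluster, as a single-exon model of 396 coding bases. All 3 listed trafficking genes, RTP1, RTP2 and REEP1, had 1 model each. So had all 7 listed regulators of receptor choice and neuron identity, including LHX2, EBF1 and LDB1, which act at receptor enhancers, and BCL11B, which restrains class I receptor choice in mice.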

How the data were processed

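The deposited annotation of build talOcc3 was read as gene, mRNA and CDS records. Per the file's second column, the authors' models came from EVM, exonerate or ALN, with versions that no source used here gives. Positions (first and last base, counted from 1) and scores are the authors' deposited values, and no source used here defines the score. The submitters' processing notes name BWA for reads. Members and gene lists were chosen with earlier results of these data known. Coding length and exon number are sums over CDS records, without untranslated regions.

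Clusters joined members whose edges lay within 500 kb. The matched share is the target part divided by coding length. Match positions count exons by ascending scaffold position: on the minus strand, 51.3% of 1170 partial matches began or ended within 3 bases of an exon edge in this order, against 4.79% along the transcript. RefSeq served for names, gene order and the numbers of genes and pseudogenes between landmarks. In it 21 of 28 neighbour symbols were found. Named were members, cluster edges, neighbours and listed genes. Wilson intervals are at 95%. Routines, in Python 3.11.15 with pandas 2.3.3, were tested on simulated data. No sequence was used here, so none is printed. One gene within the cluster is not reported here, though counts of genes and pairs include it.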

Additional observations from a re-analysis of the deposited data

How the results depend on the processing

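Of 57 values computed under alternatives, 52 stayed within the limits set for them, which were 1.5 times a count or distance, or the 95% interval of a share or median. The number of clusters of at least 2 members, 2, became 1 with scaffolds of at least 1 Mb only, which drops scaffold 85 by construction. It was also 1 without members that span over 20 kb, and 1 with models matched over at least 50% of their coding length, since OR56B4 then drops out. Symbols carried by 2 or more models, 52% of the 25, were 28.6% with those better matched models only (33 models). Kept pairs of the human order, 18 of 34, were 30 with up to 4 listed genes between, by construction. The largest cluster held 31 to 42 members under all alternatives, the median coding length was 963 to 975 bases, and the single-exon share was 68 to 72.7%. Merging overlapping models on 1 strand, leaving out models marked as of low confidence and keeping only names that end in a digit removed no member. Values under these settings could not move, yet they are counted among the 52. Alternatives on span, matched share, score under 200, placement by the matched part and name endings were chosen after seeing the data. With 1 library per tissue no replicate could be left out. No paired analysis was possible because no result comes from samples. Precision is limited by assembly and gene models, and no depth measure describes it.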
